A study of Homo sapiens with 2 samples.

Results

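The 39 HOX genes of the HOXA, HOXB, HOXC and HOXD clusters were taken as the protein-coding genes of GENCODE release 44 whose symbol was HOXA, HOXB, HOXC or HOXD followed by a number, out of 20033 protein-coding genes on chromosomes 1 to 22, X and Y. No measured value entered that choice. HOXA held 11 genes on chromosome 7, HOXB 10 on chromosome 17, HOXC 9 on chromosome 12 and HOXD 9 on chromosome 2. HOX proteins are homeodomain transcription factors that give cells their position along the body axis. The genes lie side by side in the same direction of transcription, and their order on the chromosome follows the order in which they are used along the embryo. In cells that do not use them the clusters are held silent by Polycomb complexes, whereas MLL and DOT1L complexes keep them active. In blood, HOXA9, HOXA10 and HOXB4 are best known from stem and progenitor cells, and raised HOXA expression marks some T-cell acute lymphoblastic leukemias (T-ALL).

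The measurements came from CUT&Tag, in which a transposase is tethered to an antibody-bound protein in the nucleus and the DNA fragments it cuts out are sequenced. The antibody recognised NUDT21, a subunit of the cleavage factor that binds UGUA in pre-mRNA and takes part in the choice of polyadenylation site. Both samples were J.gamma1, with no treatment given in the labels, a T-ALL line derived from Jurkat that lacks PLCG1, and the study's methods describe them as independent biological replicates. They formed 1 group of 2 replicates of 1 line, so no condition could be contrasted and no test between groups was possible. The values below describe where the peaks of each list lay, and no transcript level was measured.

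Each list gave peak positions with the fold enrichment at the summit over the local control level, a ratio. Fold and p together gave back the number of fragments at the summit for 99.98% of the peaks of replicate 1 and 99.997% of those of replicate 2. Replicate 1 held 92722 peaks on the main chromosomes and replicate 2 held 66671. The median peak rested on 30 fragments in replicate 1 and 20 in replicate 2, and if both lists were made with the same control library, replicate 1 was 1.95 times as deep. Because fold is set on different depths in the lists, it was also ranked as a percentile, the share of peaks of the same list with a lower fold.

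A peak was assigned to a promoter when its closer edge was at most 3000 bp from a transcript start of the gene in the annotation. In replicate 1, 35 of the 39 HOX genes had such a peak, where 69.8% of all protein-coding genes did. In replicate 2 the number was 19 of 39, where the share of all protein-coding genes was 57.9%. Those 19 genes were among the 35 and so had one in both lists, which is 48.7% of the HOX genes (95% Wilson interval 33.9% to 63.8%, covering counting error only, with neighbouring genes sharing peaks) and lies below the 57.0% of all protein-coding genes. The other 16 genes with a peak had it in replicate 1 only, none had it in replicate 2 only, and HOXA4, HOXA5, HOXD1 and HOXD9 had none in either.

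The 4 clusters differed in these counts. In HOXB, 10 of 10 genes had a promoter peak in replicate 1 and 9 in replicate 2, and all but HOXB9 had one in both. In HOXC the numbers were 9 of 9 and 7, and HOXC5 and HOXC11 were the genes without a peak in replicate 2. In HOXA, 9 of 11 genes had a promoter peak in replicate 1 but only HOXA7, HOXA9 and HOXA10 had one in replicate 2. That of HOXA10 lay near an internal start, its summit 5536 bp from the 5′ end of the gene record. No replicate 2 peak lay within 3000 bp of that 5′ end. In HOXD, 7 of 9 genes had one in replicate 1 and 0 of 9 in replicate 2, for which the 95% Wilson interval reaches 29.9%. The gap between the clusters was therefore widest in the shorter list, and replicate 1 alone separated them little by presence of a peak.

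**Figure D1:**
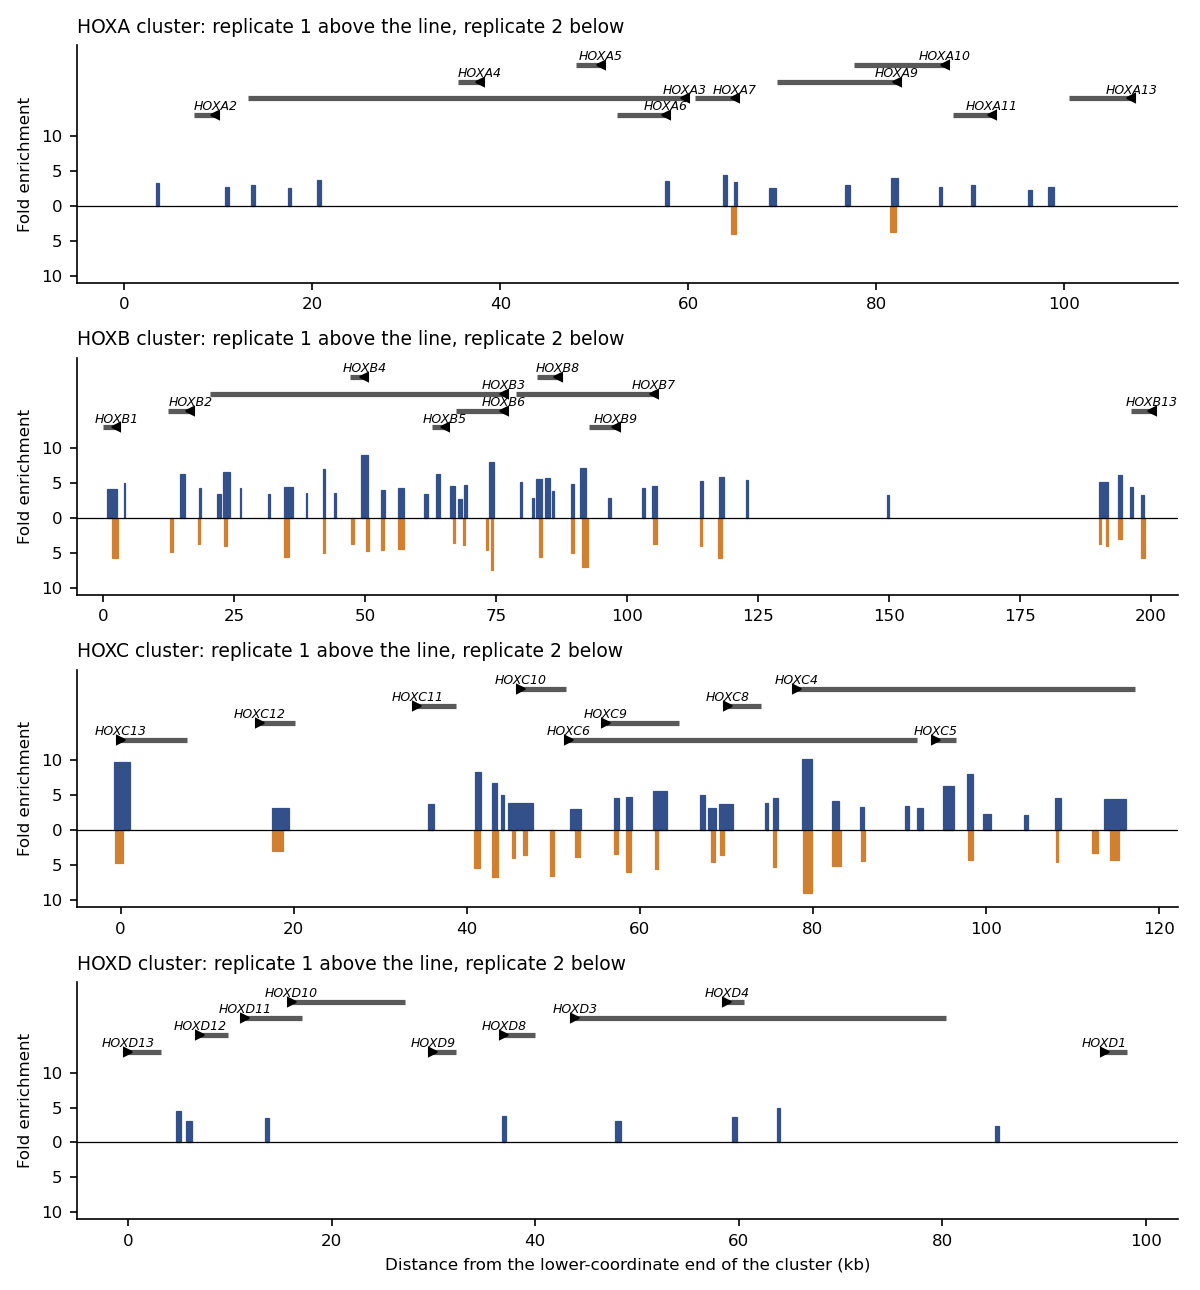
Peaks along the 4 HOX clusters, with distance from the lower-coordinate end of the cluster in kb on the x axis and fold enrichment at the summit on the y axis, replicate 1 above the line and replicate 2 below it. Bar width is peak length, grey bars are gene records with an arrowhead at the 5′ end, and the HOXD panel has 8 peaks above the line and 0 below.

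HOX promoters are rich in G and C, so they were set beside other protein-coding genes of like promoter GC, weighted by bins of 5 percentage points. The GC content within 1000 bp of the 5′ end of the gene ranged from 50.6% to 67.9% over the HOX genes, with a median of 58.6%. Of the 13678 other genes in these bins, 68.8% had promoter peaks in both lists. Weighted to the HOX bins the share was also 68.8%, so the HOX share minus that of the other genes was −20.05 percentage points. In replicate 2 the difference was −20.7 points, but in replicate 1 it was 7.45 points, so its sign turned with the replicate. HOX genes also offered less room for a peak, with a median of 2 annotated starts and 6.66 kb within reach of a start, against 6 starts and 12.3 kb for the other genes in these bins. With the 5′ end of the gene record as the only start, the difference in both replicates was −17.8 points.

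By cluster, the share with promoter peaks in both lists was 90% in HOXB against 66.7% of genes of like GC, and 77.8% in HOXC against 68.2%. It was 27.3% in HOXA against 68.3%, and 0 in HOXD against 72.2%. In replicate 1 alone, HOXA stood at 81.8% against 81.9% and HOXD at 77.8% against 85.1%. Thus, at the promoter distance used, HOXB and HOXC lay above genes of like GC in both lists and HOXD lay below them in both. The 95% Wilson intervals of the share in both lists were 59.6% to 98.2% in HOXB and 45.3% to 93.7% in HOXC. Both intervals included the share of genes of like GC. In replicate 1 the HOXD interval, 45.3% to 93.7%, included it too. HOXA was level with them in replicate 1 and below them in replicate 2. Within 1000 bp of a start, 5 of 10 HOXB genes and 6 of 9 HOXC genes had promoter peaks in both lists. HOXB thus fell from 9 genes to 5 and HOXC from 7 to 6. Over all HOX genes, 14 of 39 had promoter peaks in both lists at that distance, and the difference was −29.5 points. Shares of genes of like GC were not taken by cluster at that distance, so the HOXB and HOXC excess was not tested there. That excess is therefore stated only for the promoter distance used. The share of HOX genes with a peak in both lists did not rise with GC within the family: 7 of 12 genes in the bin of 50% to 55%, 7 of 13 at 55% to 60%, 5 of 10 at 60% to 65% and 0 of 4 at 65% to 70%, while the other genes stood at 61.7%, 69.5%, 72.5% and 78.1%. The 4 HOX genes of the last bin were HOXA13, HOXD8, HOXD9 and HOXD13.

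**Figure D2:**
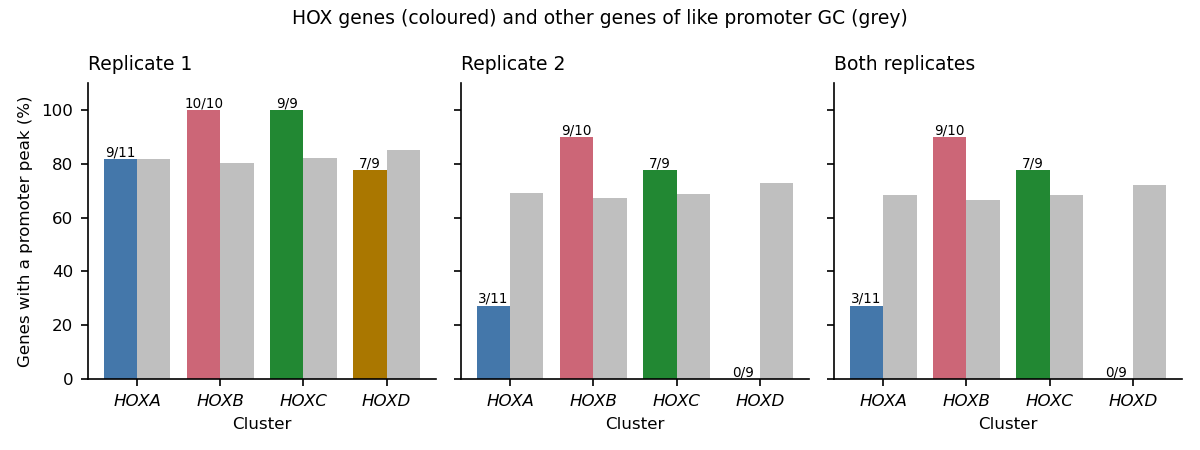
Share of genes with a promoter peak (y axis, percent) in each cluster (x axis), in replicate 1, replicate 2 and both. Coloured bars are the HOX genes with their counts, grey bars are other protein-coding genes of like promoter GC, and in both replicates HOXB and HOXC stand above their grey bars at 90% and 77.8% while HOXA stands at 27.3% and HOXD at 0.

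HOXC held the strongest peaks of the 4 clusters. The cluster spans chr12:53938831-54056030 (hg38), 117 kb. It carried 27 peaks in replicate 1 and 21 in replicate 2, which is 23.04 and 17.9 peaks per 100 kb. The whole of the main chromosomes had 3.002 and 2.16 per 100 kb. Peaks covered 22.6% of the HOXC cluster in replicate 1 and 10.9% in replicate 2, and 18 separate regions held a peak of each list. HOXC genes with paralogue numbers 4 to 6 act in the neck and anterior trunk, and those with high numbers act in the posterior trunk, limbs and skin.

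The highest-ranked region shared by the replicates, chr12:54017576-54018760, lay in an intron of HOXC4 and HOXC6, with its replicate 1 summit 1333 bp from a start of HOXC4. Its fold was 10.2 in replicate 1, from 113 fragments over a control level of 9.35, and 8.96 in replicate 2, from 58 fragments over 5.59. Those folds stood above 97.7% and 97.1% of the peaks of their lists, so the replicates ranked it alike. It was the strongest promoter peak of HOXC4 and HOXC6 at once, since it also lay within 3000 bp of an internal start of HOXC6. In replicate 1 its summit was 2367 bp from that start and 27640 bp from the 5′ end of the HOXC6 record. Near that 5′ end the strongest peaks had folds of 2.97 in replicate 1 and 6.53 in replicate 2, at percentiles of 18.8% and 88.8%. The 101 bases centred on the replicate 1 summit of the shared region are shown on the plus strand because the region is the most enriched of the clusters. CG dinucleotides are in capitals, and it held 11 of them at a GC content of 76.2%.
HOXC summit, chr12:54018214-54018314: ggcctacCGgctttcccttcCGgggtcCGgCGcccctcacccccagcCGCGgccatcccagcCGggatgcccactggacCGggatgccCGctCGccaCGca

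Next in rank was chr12:53981740-53982387 in an exon of the antisense transcript HOXC-AS3, with a fold of 6.70 in replicate 1 and 6.69 in replicate 2 and the summit at the same base in both lists. It was the strongest promoter peak of HOXC10, a gene of the lumbar spinal cord and hindlimb, with 28 and 18 fragments. An intergenic region at chr12:53979720-53980421 followed, with folds of 8.33 and 5.38. HOXC9 had a shared region at chr12:54000318-54001956 with folds of 5.64 and 5.56. The HOXC-AS3 and HOXC9 regions thus had close folds in the lists, and the intergenic region had a higher fold in replicate 1. So did the region at the start of HOXC13, a keratin regulator of hair and nails. At chr12:53938044-53939902 the fold was 9.81 in replicate 1 from 37 fragments and 4.64 in replicate 2 from 11 fragments, percentiles 97.4% and 61.5%. The control levels there, 2.575 and 1.588, were the lowest of their lists.

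The remaining HOXC genes varied widely. HOXC8 had folds of 5.06 and 4.49, from separate peaks in the lists, and HOXC12 of 3.23 and 3.04, the latter at percentiles of 26.5% and 11.9%. HOXC5 reached 6.39 in replicate 1 from 34 fragments and had no peak in replicate 2. HOXC11 reached 3.70 from 23 fragments in replicate 1 only, at the same peak that overlapped the non-coding gene HOTAIR, whose RNA is known as a partner of Polycomb. Over the HOXC genes with a peak, the median percentile of the strongest promoter peak was 88.5% in replicate 1 and 84.7% in replicate 2, with all 20033 genes as the background at 82.4% and 77.9% over those with a peak.

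HOXB had the most peaks in number. The cluster spans chr17:48528526-48728750 (hg38), 200 kb, since HOXB13 lies far from the other genes. It carried 39 peaks in replicate 1 and 24 in replicate 2, 19.5 and 11.99 per 100 kb, and peaks covered 15.6% and 7.42% of it. There were 20 shared regions, and the longest stretch without a peak, 40.01 kb in replicate 1 and 72.0 kb in replicate 2, lay between HOXB9 and HOXB13.

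The highest-ranked shared region of HOXB, chr17:48602195-48603047, lay in an intron of HOXB3, HOXB6 and the antisense transcript HOXB-AS3. Its fold was 8.08 from 41 fragments in replicate 1 and 7.48 from 24 fragments in replicate 2, with summits 5 bp apart and percentiles of 94.9% and 93.6%. It gave HOXB6 its strongest promoter peak in both lists. The 101 bases around its summit on the plus strand, shown for comparison with the HOXC summit, held 15 CG dinucleotides (capitals) at a GC content of 73.3%.
HOXB summit, chr17:48602656-48602756: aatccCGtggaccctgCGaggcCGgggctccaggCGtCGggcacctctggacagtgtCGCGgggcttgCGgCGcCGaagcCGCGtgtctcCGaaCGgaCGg

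The region at chr17:48577662-48579205 had its replicate 1 summit 356 bp from the start of HOXB4, known for expanding blood stem cells when overexpressed. Its fold was 9.01 in replicate 1 from 43 fragments and 4.77 in replicate 2 from 25 fragments, at percentiles of 96.5% and 64.9%. In replicate 1 it was also the strongest promoter peak of HOXB3, whose strongest in replicate 2 was the region above. Other regions were closer between replicates. In an intron of HOXB7, chr17:48619448-48621006 had folds of 7.24 and 7.05, and chr17:48645941-48646983, in an intron of the non-coding gene LINC03057, had 5.86 and 5.72. A region in an intron of HOXB3, chr17:48570366-48570898, had 6.98 and 5.02. In the order given, these regions rested on 27, 22 and 26 fragments in replicate 1 and 18, 14 and 12 in replicate 2. Their control levels were 2.575, 2.63 and 2.575 in replicate 1 and 1.694, 1.622 and 1.588 in replicate 2. The lowest control levels of the lists were 2.575 and 1.588, so these folds stood on control levels at or near the lowest.

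Along the cluster, HOXB1, a hindbrain gene, had folds of 5.10 in replicate 1 and 5.76 in replicate 2 at its strongest promoter peaks, which did not touch each other. Of the 19 genes with promoter peaks in both lists, 10 were of this kind, so that their folds are not repeats of 1 site, and 9 had strongest peaks that touched. The 10 were HOXA7, HOXB1, HOXB2, HOXB3, HOXB5, HOXB7, HOXB8, HOXB13, HOXC8 and HOXC9. The share over all protein-coding genes was not taken, so these counts cannot be read as particular to HOX genes. HOXB2 had 6.36 and 4.87, and HOXB5 had 6.36 and 3.63. HOXB2 and HOXB5 had equal values of 28 fragments over the same control level in replicate 1, at different peaks. HOXB7 and HOXB8 had the same strongest peak as each other within each list, at 5.69 in replicate 1 and 5.58 in replicate 2. These summits lay 20039 and 21638 bp from the 5′ end of the HOXB7 record. Near that 5′ end the strongest peaks had folds of 4.55 from 17 fragments in replicate 1 and 3.79 from 9 in replicate 2. HOXB13, a gene of the prostate and hindgut, had 4.92 and 5.69, from 23 and 17 fragments. HOXB9 was the weakest member, with a fold of 2.91 from 21 fragments at percentile 16.6% in replicate 1 and no promoter peak in replicate 2.

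HOXA had few peaks found in both lists. The cluster spans chr7:27092993-27200091 (hg38), 107 kb, and carried 15 peaks in replicate 1 and 2 in replicate 2, or 14.0 and 1.87 per 100 kb. Peaks covered 6.57% and 1.19% of it. In replicate 1 the longest stretch without a peak was 36.6 kb and ran over HOXA4 and HOXA5. Both replicate 2 peaks touched a replicate 1 peak, which made 2 shared regions.

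The first shared region, chr7:27174397-27175273, lay in an exon of a non-coding transcript of HOXA9, near a start of HOXA10. Its fold was 3.97 in replicate 1 from 24 fragments over a control level of 4.82, and 3.77 in replicate 2 from 14 fragments over 2.97. The second, chr7:27157537-27158197, had its replicate 1 summit 42 bp from a start of HOXA7, with folds of 3.38 from 22 fragments and 3.99 from 16. HOXA9 and HOXA10 are the posterior genes tied to blood progenitors and leukemia, and HOXA7 is their neighbour. The folds of these regions lay between percentiles 31.6% and 50.4% of their lists, below those of the leading HOXB and HOXC regions. The 101 bases around the HOXA9 summit on the plus strand held 7 CG dinucleotides (capitals) at a GC content of 62.4%.
HOXA summit, chr7:27174685-27174785: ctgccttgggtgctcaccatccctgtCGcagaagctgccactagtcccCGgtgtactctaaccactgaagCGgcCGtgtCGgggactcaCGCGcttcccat

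The other HOXA genes described here had a promoter peak in replicate 1 only. HOXA6 had a fold of 3.63 from 62 fragments, the most of any HOXA peak, but over a control level of 15, the highest at any peak of the clusters. HOXA3, a gene needed for the thymus and parathyroid, had 3.72 from 23 fragments, and HOXA13 had 3.52 from 34. HOXA2 and HOXA11 were lower at 2.64 and 3.06. The strongest replicate 1 peak of HOXA7, 4.37 from 31 fragments, was the highest fold in the cluster, and no peak of replicate 2 touched it.

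HOXD had the least. The cluster spans chr2:176092721-176190907 (hg38), 98.2 kb, and carried 8 peaks in replicate 1 and 0 in replicate 2, or 8.15 and 0 per 100 kb. Peaks covered 3.69% of it in replicate 1. HOXD genes with high paralogue numbers are known from the digits and genitalia. The strongest was an intronic peak of HOXD3 with a fold of 4.94 from 19 fragments over 2.75, at percentile 73.1%. HOXD12 had 4.56 from 27 fragments, HOXD8 3.83 from 14 and HOXD4 3.61 from 20. HOXD10 and HOXD11 shared a peak of 3.45 from 18, and HOXD13 had 3.08 from 19. The 101 bases around the HOXD3 summit on the plus strand, shown as the strongest of a cluster without shared regions, held 3 CG dinucleotides (capitals) at a GC content of 61.4%.
HOXD summit, chr2:176156513-176156613: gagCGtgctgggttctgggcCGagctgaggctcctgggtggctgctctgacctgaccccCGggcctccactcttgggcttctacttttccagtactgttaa

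**Figure D3:**
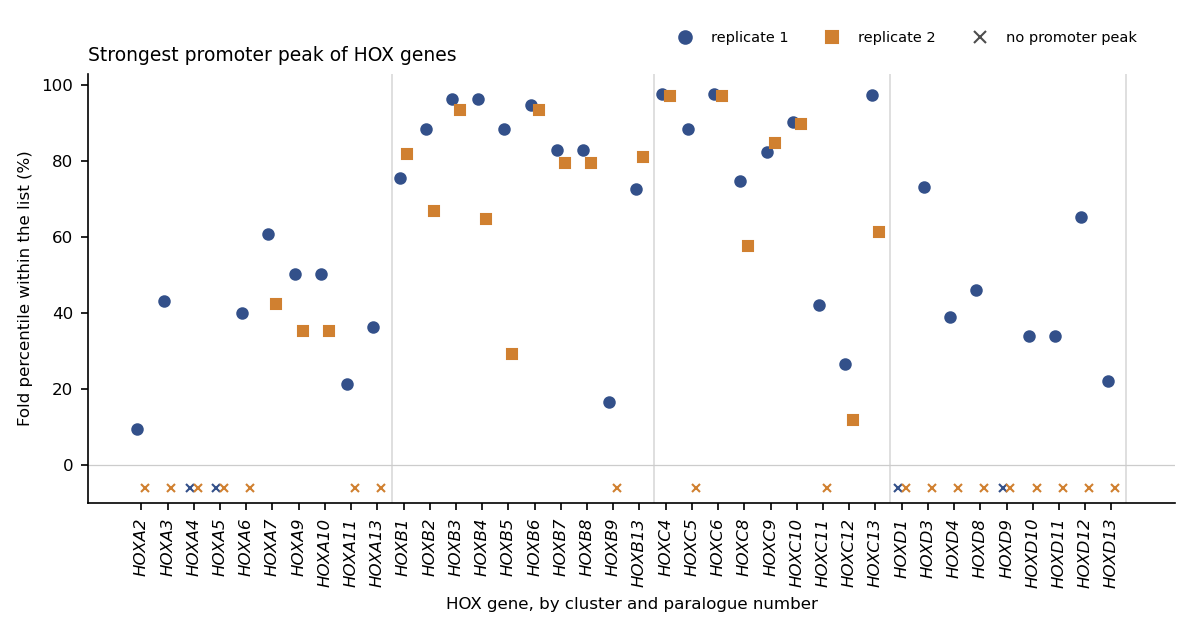
Fold percentile (y axis, percent, within the list of the replicate) of the strongest promoter peak of the HOX genes (x axis, by cluster and paralogue number), with circles for replicate 1, squares for replicate 2 and crosses where there was no promoter peak. HOXC4 and HOXC6 stand highest at 97.7% and 97.1%, HOXA7, HOXA9 and HOXA10 are the HOXA genes with squares, and HOXD has no square.

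By the share of genes with promoter peaks in both lists, the paralogue classes differed less than the clusters. Of the anterior genes, numbers 1 to 3, 3 of 8 had promoter peaks in both lists, and these were HOXB1, HOXB2 and HOXB3. Of the central genes, numbers 4 to 8, 9 of 15 did, and of the posterior genes, numbers 9 to 13, 7 of 16. In replicate 1 alone the counts were 7 of 8 anterior, 13 of 15 central and 15 of 16 posterior genes. The classes were spread unevenly over the clusters, and HOXC has no anterior gene, so class and cluster cannot be cleanly separated. HOX genes lie close together, so one peak can count for 2 genes. Of the 71 promoter peaks of HOX genes in replicate 1, 20 served 2 genes, and of the 35 in replicate 2, 13 did. The counts of genes are therefore not counts of separate events.

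In replicate 1 all 4 clusters were denser in peaks than the genome, and in replicate 2 HOXB and HOXC were, while HOXA and HOXD were not. Density was also read beside other stretches of like GC. Windows of 100 kb whose GC content lay within 2 percentage points of the cluster held a median of 23 peaks in replicate 1 and 17 in replicate 2 for HOXA, and 26.0% and 8.10% of them held fewer peaks than HOXA per 100 kb. For HOXB the medians were 13 and 8, and 69.9% and 60.8% of windows held fewer. For HOXC the medians were 25 and 19, with 43.97% and 44.2% holding fewer. For HOXD the medians were 20 and 14, with 21.2% holding fewer in replicate 1, and 6.32% of its windows had 0 peaks in replicate 2, as HOXD had. HOXB and HOXC thus lay between the quartiles of like windows in both lists, HOXD lay below the lower quartile in both, and HOXA did so in replicate 2.

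**Figure D4:**
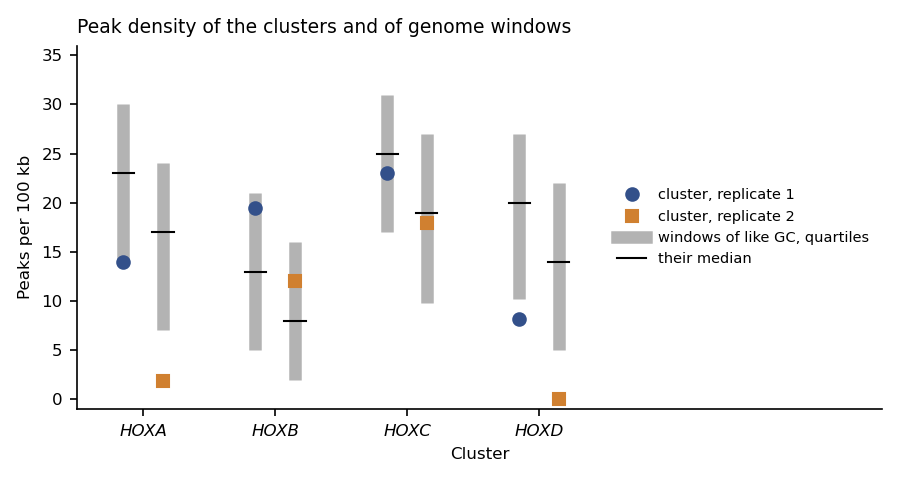
Peaks per 100 kb (y axis) in each HOX cluster (x axis; circles for replicate 1, squares for replicate 2) beside 100-kb windows of like GC content, drawn as grey bars from the lower to the upper quartile with the median as a line. In replicate 2, HOXA at 1.87 and HOXD at 0 lie under their grey bars, while HOXB at 11.99 and HOXC at 17.9 lie inside theirs.

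The peaks of the clusters were compared in size as well. In replicate 1 the median fold was 3.05 in HOXA, 3.53 in HOXD, 4.52 in HOXC and 4.54 in HOXB, with 3.95 over the list. Median length was 416 bp in HOXA and 438 bp in HOXD, against 695 bp in HOXC, 735 bp in HOXB and 630 bp over the list. In replicate 2 the median length was 639.5 bp in HOXA, on 2 peaks, 564 bp in HOXC and 520.5 bp in HOXB, with 649 bp over the list, so the order of lengths turned between the lists. The median fold in replicate 2 was 3.88 in HOXA, 4.49 in HOXC and 4.55 in HOXB, with 4.23 over the list. In replicate 1 the median control level at the summits was 6 in HOXA, 5 in HOXC, 4.53 in HOXD and 3.51 in HOXB. Over the list it was 6. The median number of fragments was 24, 28, 20 and 22 in the same order, below the 30 over the list. HOXB and HOXC peaks had higher folds than the list at the median, with fewer fragments over a lower control level. HOXA peaks thus had more fragments than HOXB peaks at the median but stood on a higher control level. In replicate 2 the control level was also higher in HOXA, 3.12 against 2.27 in HOXB, and the part of the control level in the lower HOXA folds was not tested. The median number of fragments there was 15 in HOXA, 19 in HOXC and 13.5 in HOXB, with 20 over the list.

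**Figure D5:**
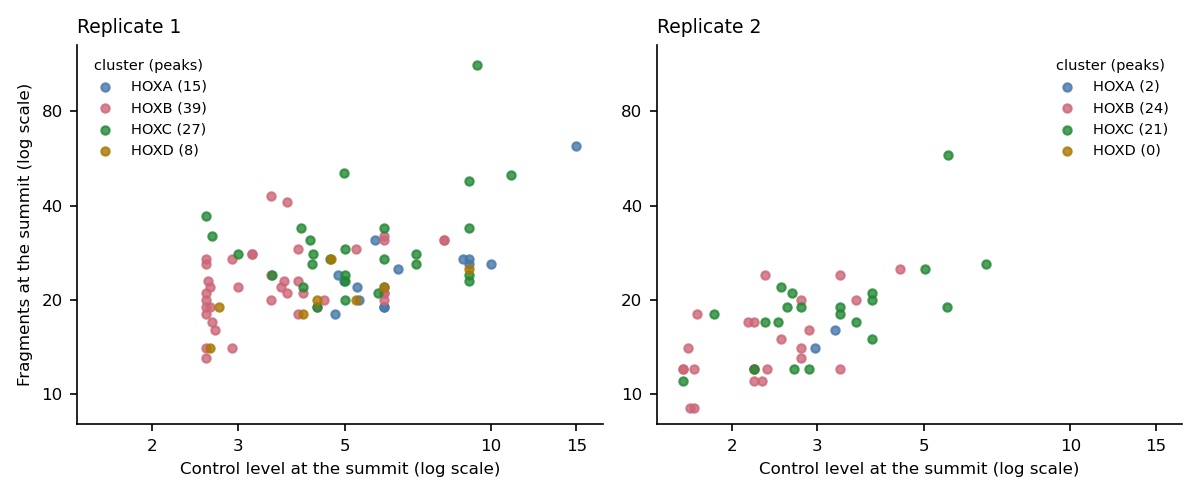
Fragments at the summit (y axis, log scale) against the control level there (x axis, log scale) for every peak in the HOX clusters, replicate 1 on the left and replicate 2 on the right, coloured by cluster with peak counts in the key. The highest point in each panel is the HOXC4 and HOXC6 intron, at 113 and 58 fragments, and the HOXA6 peak lies farthest right in replicate 1 at a control level of 15.

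The replicates were also compared peak by peak. Over the whole list, 56.4% of replicate 1 peaks touched a peak of replicate 2. In HOXC 18 of 27 did so, in HOXB 20 of 39, in HOXA 2 of 15 and in HOXD 0 of 8. To allow for peak strength, each cluster was set beside replicate 1 peaks of like −log10 p elsewhere. At the rate of those peaks, 16.2 would have been touched in HOXC, 20.9 in HOXB, 5.51 in HOXA and 2.91 in HOXD. HOXB and HOXC were thus close to peaks of like strength, and HOXA and HOXD fell short of them, on 15 and 8 peaks. With replicate 1 reduced to as many peaks as replicate 2, keeping those of the highest −log10 p, HOXA kept 5 peaks, HOXB 29, HOXC 21 and HOXD 2.

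Most of the peaks lay within gene bodies. Of the 89 summits in the clusters in replicate 1, 54 lay in introns, 10 in exons of non-coding transcripts, 6 in coding exons, 6 in 3′ UTRs, 5 in 5′ UTRs and 8 between genes. In replicate 2, 28 of 47 were intronic. Summit places were not counted over the whole lists, so these shares have no background. Gene records such as those of HOXB3 and HOXC4 also run over neighbouring genes. The clusters are so compact that 95.01% of HOXA and 66.5% of HOXB lay within 3000 bp of some annotated start, so the promoter and the body of a HOX gene are hard to separate. NUDT21 is known for its work at transcript ends, and 12 of the 39 HOX genes had a summit within 1000 bp of the gene end in replicate 1, 5 in replicate 2 and 2, HOXB6 and HOXB8, in both. The shares of all protein-coding genes were 20.7%, 17.9% and 12.9%. The end peaks of HOXB6 also counted as promoter peaks of HOXB5, and those of HOXB8 as promoter peaks of HOXB7.

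Non-coding genes of the clusters were counted in the same way. Of the long non-coding RNA genes, 6 of 7 in HOXC and 5 of 7 in HOXB had a peak within 3000 bp of a start in both replicates, against 1 of 10 in HOXA and 0 of 4 in HOXD, where 28.0% of all 18866 such genes did. These counts are not separate from those of the HOX genes, since 9 of the 12 had, in at least 1 list, no start peak other than promoter peaks of HOX genes. HOTTIP, beside HOXA13, had a peak in replicate 1 only, with a fold of 3.52. The clusters also hold microRNA genes whose products target HOX transcripts. MIR196A2 in HOXC was overlapped in both lists, with folds of 2.97 and 3.91, and MIR615 was overlapped in replicate 1 only, at 6.39. The nearest peaks of MIR196A1 in HOXB lay 559 bp away in replicate 1 and 852 bp in replicate 2, and for MIR10A they lay 734 and 633 bp away. MIR196B in HOXA had a peak 101 bp away in replicate 1 and none nearer than 4834 bp in replicate 2. MIR10B in HOXD had its nearest peak at 1663 bp in replicate 1 and none in the cluster in replicate 2.

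The mature microRNAs of these genes are given from RefSeq (GRCh38.p14) to show which clusters encode the same targeting sequence, with the seed, bases 2 to 8, in capitals. The miR-196 products of the 5p arm from HOXA, HOXB and HOXC share a seed, and those of HOXB and HOXC are identical.
miR-196a-5p (HOXB and HOXC): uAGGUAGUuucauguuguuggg
miR-196b-5p (HOXA): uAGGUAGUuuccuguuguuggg
miR-10a-5p (HOXB): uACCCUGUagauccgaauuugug

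Genes that act on or with the HOX clusters were read in the same way, as lists chosen by function. Of the HOX cofactors, which bind DNA beside HOX proteins, 5 of 9 had promoter peaks in both lists, where genes of like GC gave 69.2%. PBX3 had folds of 8.86 and 8.86 and PKNOX1 of 13.3 and 8.90, while MEIS1, a partner of HOXA9 in leukemia, had no promoter peak in either list. Of the MLL and DOT1L complexes, which keep HOX genes active, 10 of 14 had one in both, where genes of like GC gave 63.6%. KMT2A had 17.02 and 9.89, DOT1L 19.7 and 11.6, and MEN1 9.36 and 14.0.

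Among Polycomb genes, 17 of 27 had promoter peaks in both lists, where genes of like GC gave 68.9%. CBX8 had folds of 23.4 and 10.8 and SUZ12 of 9.68 and 5.87, and the methyltransferase gene EZH2 had 5.37 in replicate 1 only. Of the CDX and retinoid genes, upstream regulators of HOX genes in the embryo, 6 of 11 had one in both, where genes of like GC gave 61.1%. RARA had 7.60 and 10.5, and CDX1, CDX2 and CDX4 had none. Of the boundary and looping genes, 7 of 10 had one in both, where genes of like GC gave 72.2%, with CTCF at 9.05 and 9.98.

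Other homeobox genes that lie in groups gave a count below that of the HOX genes. Of 42 such genes, 13 had promoter peaks in both lists, 31.0%, where genes of like GC gave 70.8%. IRX5 led with folds of 10.1 and 7.47, and DLX4 had 6.93 and 6.34. NKX2-1, NKX2-5, TLX3, SIX3 and EN1 were among those without a peak in either list. By promoter peaks in both lists, the 48.7% over all HOX genes thus lay between this group and genes of like GC. At the promoter distance used, HOXB and HOXC lay above this group and those genes, and HOXD at 0 lay below. The 95% Wilson intervals of HOXB and HOXC included the share of genes of like GC. HOXA at 27.3% lay below genes of like GC, but its 95% Wilson interval, 9.75% to 56.6%, included the 31.0% of this group. In replicate 1 alone, 23 of the 42 genes of this group had a promoter peak, against 9 of 11 in HOXA and 7 of 9 in HOXD. HOXA and HOXD thus stood above this group by share in replicate 1. Their 95% Wilson intervals there, 52.3% to 94.9% and 45.3% to 93.7%, included the share of this group.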

How the data were processed

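CUT&Tag with a NUDT21 antibody was done on 2 replicates of J.gamma1 cells. According to the study's methods and the submitters' processing notes, the authors trimmed reads with fastp, aligned them to hg38 with Bowtie2 2.2.5, removed duplicates with Picard and called peaks per replicate with MACS3 3.0.1. A control library is not described in the sources used here. The deposited columns were fold enrichment at the summit (a ratio), −log10 p and −log10 q, and a score, which was not used. The lowest −log10 q was 2.00. Read totals were not used, so absolute depth is unknown.

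Fragments and control level at each summit were solved from the deposited fold and −log10 p, and the solution was tested on simulated data. All 27 RefSeq promoter windows of HOX genes matched hg38 at the stated coordinates, and 0 peaks ran past a chromosome end. The members and lists were chosen with earlier results of these data known. All 39 HOX genes entered the counts, and the values of 1 are not reported here. Values were given for each gene whose 5′ end lay within 3000 bp of a peak in both lists and for the gene of highest mean percentile in each cluster (HOXD had no gene with a mean), with up to 5 shared regions a cluster and examples from the lists. Values of other HOX genes were added after they were seen. Shares at like GC weighted other genes by 5-point bins. Nothing was tested, since there was 1 group. Alternatives changed the peak threshold, distance, start definition, GC window, overlap rule, cluster limits and replicates. Python 3.11.15, numpy 2.4.6, pandas 2.3.3 and scipy 1.17.1 were used.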

Additional observations from a re-analysis of the deposited data

How the results depend on the processing

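The 19 HOX genes with promoter peaks in both lists became 4 with the 10000 peaks of highest −log10 p per list, and 19 to 35 from a single replicate. The difference to genes of like GC, −20.05 points, ranged from −20.7 to 7.45 from a single replicate, turning sign without replicate 2, whose list is the shorter. It was negative under every other alternative run. With 10000 peaks per list HOXA had 0 genes, HOXB 2 and HOXC 2. HOXA also had 0 at a −log10 q of at least 5, and HOXB had 5 within 1000 bp. Whether HOXB and HOXC stayed above genes of like GC within 1000 bp was not tested, but HOXB fell there from 9 genes and HOXC from 7 to 6. From a single replicate HOXA had 3 to 9 genes and HOXD 0 to 7. The median percentile of the strongest promoter peak, 72.3% as the mean of the replicates, was 96.1% with 10000 peaks, 55.8% within 1000 bp and 61.6% at the 5′ end of the gene record. Peaks per 100 kb over the 4 clusters, 13.01 ± 5.68 (SD, n = 2), became 0.670 with 10000 peaks and 1.91 without promoter peaks, and the covered share, 9.30% ± 5.32 (SD, n = 2), became 0.648% with 10000 peaks. The 40 shared regions became 24 at a −log10 q of at least 5. A further 52 values stayed within 1 SD or 1.5 times of the reported one. The causes were not tested. No paired analysis was possible because the design has a single group. Peaks of HOXA and HOXD rest mainly on replicate 1, with a median of 24 and 20 fragments.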

Other observations

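Words were counted within 100 bp of the summits, on both strands. TGTA, the DNA form of the word that NUDT21 binds in RNA, was found at 36 of 89 cluster summits in replicate 1 and 15 of 47 in replicate 2, 40.4% and 31.9%, against 50.1% and 50.9% of the other peaks. The core of the CTCF motif, read as CC, any 3 bases, AG, any 2 bases and GGC, was found at 10 of 89 and 4 of 47, 11.2% and 8.51%, against 6.96% and 6.72%. The windows of both sets were of the same length, GC content was not matched, and a TGTA can fall inside the CTCF word. A word match is not evidence of binding.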
